A study of Mus musculus with 71 samples.

Results

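The RNA of 7 genes was followed through 3 reward regions of the mouse brain: Grik1, Grik2, Grik3, Grik4 and Grik5, which encode the pore-forming subunits of kainate receptors, and Neto1 and Neto2, which encode the auxiliary subunits of these receptors. Members were taken by gene symbol, and all 7 were present among the 37681 gene rows shared by the 6 tables of the series. The group was chosen by a measured value as well as by name, because the 1-day difference of Neto1 in the ventral tegmental area (VTA) was known when the members were picked, so the VTA values at 1 day are given as a description, with no p-value or interval, and nothing is read from the count of calls in that table.

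Kainate receptors are ion channels gated by glutamate and built from 4 subunits. GluK1, GluK2 and GluK3 (Grik1, Grik2, Grik3) bind the agonist kainate with low affinity and can form channels alone, whereas GluK4 and GluK5 (Grik4, Grik5) bind it with high affinity and need a partner from the low-affinity group. Neto1 and Neto2 are single-pass membrane proteins that slow the decay of kainate receptor currents, and Neto1 also binds NMDA receptors. In the brain these receptors act on both sides of the synapse, where they tune transmitter release and carry slow excitatory currents.

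Adult wild-type C57BL/6 mice of both sexes (C57BL/6J in the study's methods), all trained first to work for food, took cocaine or saline by intravenous self-administration and were killed after 1 or 28 days of abstinence. Micro-punches of the nucleus accumbens (NAc), VTA and prefrontal cortex (PFC) gave 71 RNA-seq libraries in 12 groups of 6, except the 28-day VTA saline group, which had 5. Saline mice had the same food training and catheter surgery as cocaine mice. A library held between 20971967 and 49700932 reads assigned to genes. Neither the labels nor the methods state that each library came from a separate animal, so p-values measure the spread between libraries.

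The punches carried the markers of their labelled regions, with some mixing. The summed level of 6 striatal medium spiny neuron markers ran from 761 to 2134 RPKM (reads scaled to gene length and to library depth) in the NAc. In the PFC it lay between 49.1 and 80.4 RPKM in 23 libraries, and it was 735 RPKM in library 4 of the 28-day saline group. That library therefore stood apart from its label, and the calls, levels and differences of the members that it moved most are also given without it. The summed level of 6 dopamine neuron markers was 421 to 2020 RPKM in the VTA, and at most 19.5 RPKM in the NAc and 11.6 RPKM in the PFC. The summed level of 6 markers of cortical and hippocampal excitatory neurons, such as Slc17a7, Tbr1 and Neurod6, was 468 to 780 RPKM in the PFC, but it also varied from 3.11 to 285 RPKM among NAc libraries and from 2.00 to 84.2 RPKM among VTA libraries. Their part in the results below was not tested except where a value is given.

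In the annotation of genome build mm9 the members lie on 7 chromosomes. The coordinates span whole genes, and how reads were assigned to exons was not given in the sources used here. Grik1 (ENSMUSG00000022935) is on the minus strand of chromosome 16 from 87896441 to 88289947, Grik2 (ENSMUSG00000056073) on the minus strand of chromosome 10 from 48819266 to 49508572, and Grik3 (ENSMUSG00000001985) on chromosome 4, plus strand, from 125167944 to 125391417. A noncoding gene, A730099G02Rik, overlaps Grik2, and a pseudogene and a microRNA gene lie within the span of Grik3. Grik4 (ENSMUSG00000032017) is on the minus strand of chromosome 9 from 42326218 to 42752576, and the gene 9530085L02Rik overlaps it on the same strand, so reads could be shared between them. Grik5 (ENSMUSG00000003378) is on the minus strand of chromosome 7 from 25794872 to 25857388. Neto1 (ENSMUSG00000050321) is on chromosome 18, plus strand, from 86564344 to 86671289, and Neto2 (ENSMUSG00000036902) on the minus strand of chromosome 8 from 88161136 to 88224653.

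**Figure D1:**
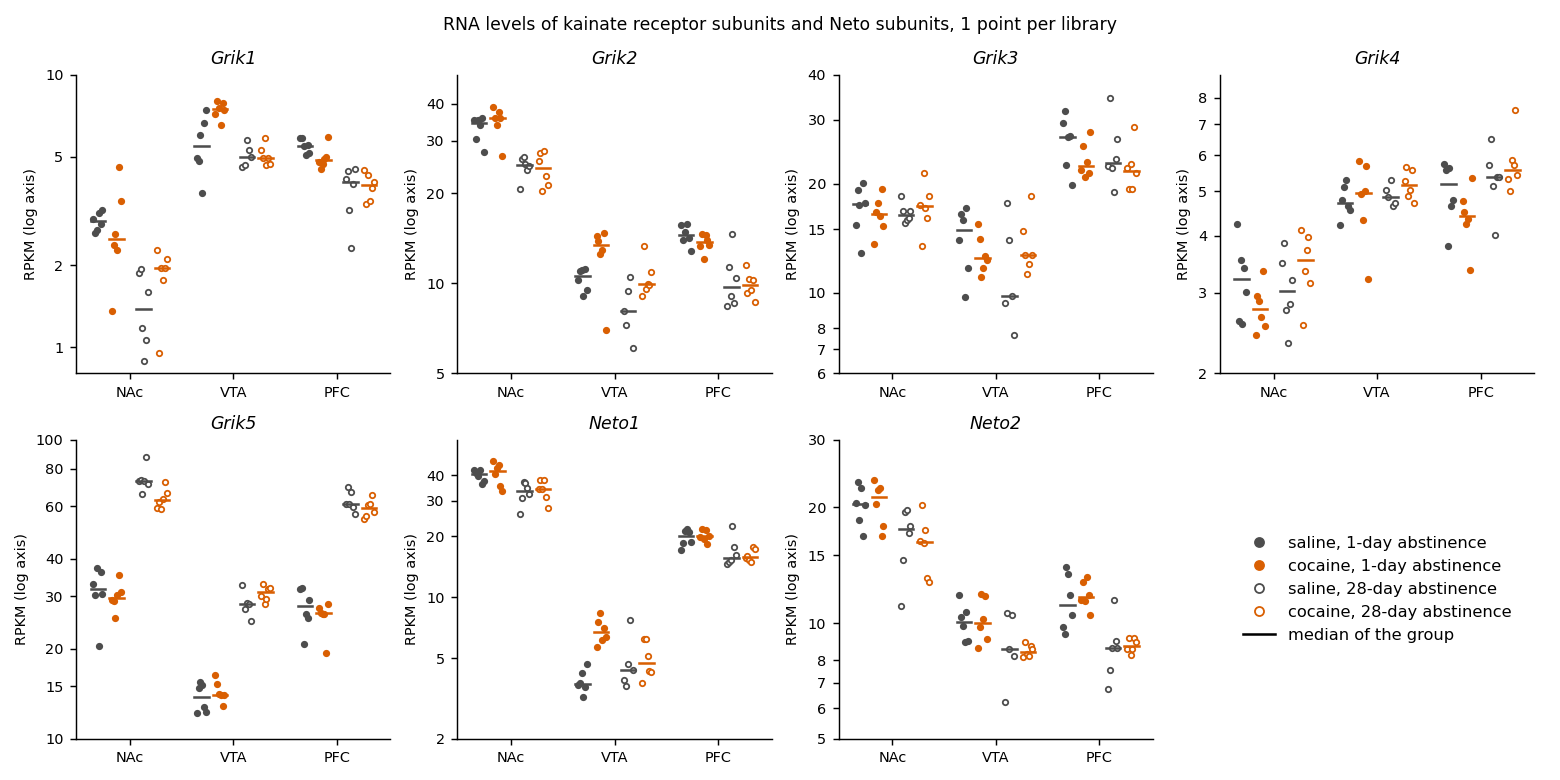
Level of each gene in RPKM on a log axis, with 1 point per library, grouped by region. Grey points are saline and orange points cocaine libraries, filled at 1 day and open at 28 days of abstinence, and bars are group medians. Neto1 lay between 25.8 and 46.9 RPKM in the NAc and between 3.21 and 8.35 RPKM in the VTA, and in the 1-day VTA all 6 cocaine libraries lay above all 6 saline libraries.

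Each region had its own blend of subunits in mice that took no cocaine. The NAc was richest in Neto1, Grik2 and Neto2 and poorest in Grik1 and Grik4, the PFC was richest in Grik3, and the VTA had little Neto1. In the NAc at 28 days the median levels fell in the order Grik5 (72.8 RPKM), Neto1 (33.5 RPKM), Grik2 (24.9 RPKM), Neto2 (17.5 RPKM), Grik3 (16.4 RPKM), Grik4 (3.02 RPKM) and Grik1 (1.38 RPKM). The ranges of Neto1 and Grik2, and of Neto2 and Grik3, overlapped, and the other neighbours in that order did not. In the VTA the order was Grik5 (28.2 RPKM), Grik3 (9.83 RPKM), Neto2 (8.55 RPKM), Grik2 (8.09 RPKM), Grik1 (5.00 RPKM), Grik4 (4.87 RPKM) and Neto1 (4.38 RPKM). Only Grik5 above Grik3 and Grik2 above Grik1 were separated by more than the spread of these 5 VTA libraries. In the PFC the order was Grik5 (61.0 RPKM), Grik3 (22.9 RPKM), Neto1 (15.7 RPKM), Grik2 (9.77 RPKM), Neto2 (8.61 RPKM), Grik4 (5.37 RPKM) and Grik1 (4.04 RPKM). Here Grik5 stood clear of Grik3, and Neto2 of Grik4, while the other neighbours overlapped. Without library 4 the order was the same, and of the neighbours only Grik2 and Neto2 still overlapped. These orders are those of 28 days. In 1-day saline NAc libraries Neto1 led (median 40.5 RPKM), before Grik2 (34.5 RPKM) and Grik5 (31.7 RPKM). In the 1-day saline VTA Grik3 (14.9 RPKM) overlapped Grik5 (13.8 RPKM), and in the PFC Grik5 (27.7 RPKM) overlapped Grik3 (27.0 RPKM).

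The regions were compared in a fit of the 17 saline libraries at 28 days with edgeR's quasi-likelihood test and Benjamini-Hochberg adjustment over 17181 genes, a gene being called at an adjusted p under 0.05. Against the VTA, the NAc had 62.5% of all genes called, against the PFC 40.7%, and 57.8% were called between VTA and PFC, so a call was common and a count of called members says little alone. Of the 7 members, 7 were called for NAc against VTA (5 higher in the NAc and 2 lower), 7 for NAc against PFC (4 higher and 3 lower) and 4 for VTA against PFC (all 4 lower in the VTA). Each region was a table of its own, so region and table cannot be told apart, and in bulk tissue fewer cells of a type and less RNA per cell cannot be told apart either. Libraries of different regions may come from the same mice. The labels do not say which, so the fit had no term for the animal.

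Among the low-affinity subunits, Grik2 was highest in the NAc and Grik1 was lowest there. The 28-day saline levels of Grik2 ran from 20.7 to 26.4 RPKM in the NAc (median 24.9) and from 8.43 to 14.6 RPKM in the PFC (median 9.77), and the 5 VTA libraries gave 8.09, 7.26, 9.44, 10.5 and 6.07 RPKM. All NAc libraries were above all others. Grik2 was higher in the NAc by a log2 fold change of 1.68 over the VTA (SE 0.151, adjusted p = 3.3e-08) and of 1.19 over the PFC (SE 0.140, adjusted p = 3.0e-06). Without PFC saline library 4 the latter was 1.34. Grik1 showed the opposite, with 0.891 to 1.93 RPKM in the NAc (median 1.38), 4.56 to 5.77 RPKM in the VTA and 2.30 to 4.49 RPKM in the PFC, and the groups of NAc and either other region did not overlap. It was 3.33-fold lower in the NAc than in the VTA (log2 fold change -1.73, SE 0.190, adjusted p = 3.7e-07) and 2.73-fold lower than in the PFC (log2 fold change -1.45, SE 0.183, adjusted p = 6.6e-06), or by a log2 fold change of -1.54 without library 4. Between VTA and PFC Grik1 did not pass the test (log2 fold change 0.29, 95% interval -0.10 to 0.67, adjusted p = 0.192).

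Grik3, the remaining low-affinity subunit, was highest in the PFC. It reached 19.0 to 34.4 RPKM in the PFC (median 22.9), 15.6 to 18.5 RPKM in the NAc (median 16.4) and 9.40, 17.7, 14.0, 9.83 and 7.65 RPKM in the VTA. The VTA values were spread widely and overlapped the NAc, whereas every PFC library was above every NAc and VTA library. Grik3 was higher in the PFC than in the VTA (log2 fold change of VTA against PFC -1.22, SE 0.184, adjusted p = 1.9e-05) and than in the NAc (log2 fold change of NAc against PFC -0.61, SE 0.172, adjusted p = 0.0083). The NAc exceeded the VTA by 0.61 on the log2 scale (SE 0.181, adjusted p = 0.0073).

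The high-affinity subunits differed from each other. Grik5 was the most abundant member in all 3 regions at 28 days, with 65.8 to 87.5 RPKM in the NAc (median 72.8), 56.3 to 69.5 RPKM in the PFC (median 61.0) and 32.7, 27.1, 28.5, 28.2 and 24.7 RPKM in the VTA. The VTA libraries were all below the others, by a log2 fold change of 1.50 for NAc against VTA (SE 0.0853, adjusted p = 1.0e-10) and of -1.29 for VTA against PFC (SE 0.0847, adjusted p = 5.8e-10). NAc and PFC overlapped, and their difference of 0.21 on the log2 scale (SE 0.0784, adjusted p = 0.0435) was past the threshold in 8 of 17 fits that each left out 1 library. Grik4, in contrast, was low throughout, at 2.33 to 3.86 RPKM in the NAc (median 3.02), 4.65 to 5.30 RPKM in the VTA and 4.01 to 6.52 RPKM in the PFC (median 5.37). It was lower in the NAc than in the VTA (log2 fold change -0.57, SE 0.114, adjusted p = 0.00029) and the PFC (log2 fold change -0.84, SE 0.109, adjusted p = 8.6e-06). Between VTA and PFC its log2 fold change was -0.27 (SE 0.114, adjusted p = 0.0509), and it passed the threshold when PFC saline library 4 was left out (log2 fold change -0.35, SE 0.104, adjusted p = 0.0089).

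Both auxiliary subunits were highest in the NAc, and Neto1 was low in the VTA. Neto1 was 7.32-fold higher in the NAc than in the VTA (log2 fold change 2.87, SE 0.183, adjusted p = 4.1e-10), and 3.85-fold lower in the VTA than in the PFC (log2 fold change -1.94, SE 0.177, adjusted p = 4.1e-08). Its levels were 25.8 to 37.0 RPKM in the NAc (median 33.5), 14.6 to 22.5 RPKM in the PFC (median 15.7) and 3.90, 3.63, 4.68, 7.71 and 4.38 RPKM in the VTA, without overlap between regions. The highest PFC value, 22.5 RPKM, was that of library 4, the library with striatal markers, and the others were at most 17.7 RPKM. Against the PFC, Neto1 was higher in the NAc by a log2 fold change of 0.93 (SE 0.159, adjusted p = 0.00014), and by 1.05 without library 4. Neto2 was higher in the NAc, at 11.1 to 19.7 RPKM (median 17.5), than in the PFC at 6.72 to 11.5 RPKM (log2 fold change 0.91, SE 0.165, adjusted p = 0.00024) and the VTA at 6.22 to 10.6 RPKM (log2 fold change 1.03, SE 0.176, adjusted p = 5.9e-05). The lowest NAc library, at 11.1 RPKM, lay just below the highest PFC library, which was library 4, and without it the other PFC libraries were at most 8.97 RPKM and the log2 fold change was 1.03. VTA and PFC levels of Neto2 overlapped over most of their range (log2 fold change -0.12, 95% interval -0.48 to 0.24, adjusted p = 0.567). Neto1 exceeded Neto2 in each 28-day saline library of the NAc, by a ratio of RPKM of 1.81 to 2.33, and of the PFC, by 1.77 to 2.17, whereas the ratio was 0.342 to 0.735 in the VTA.

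**Figure D2:**
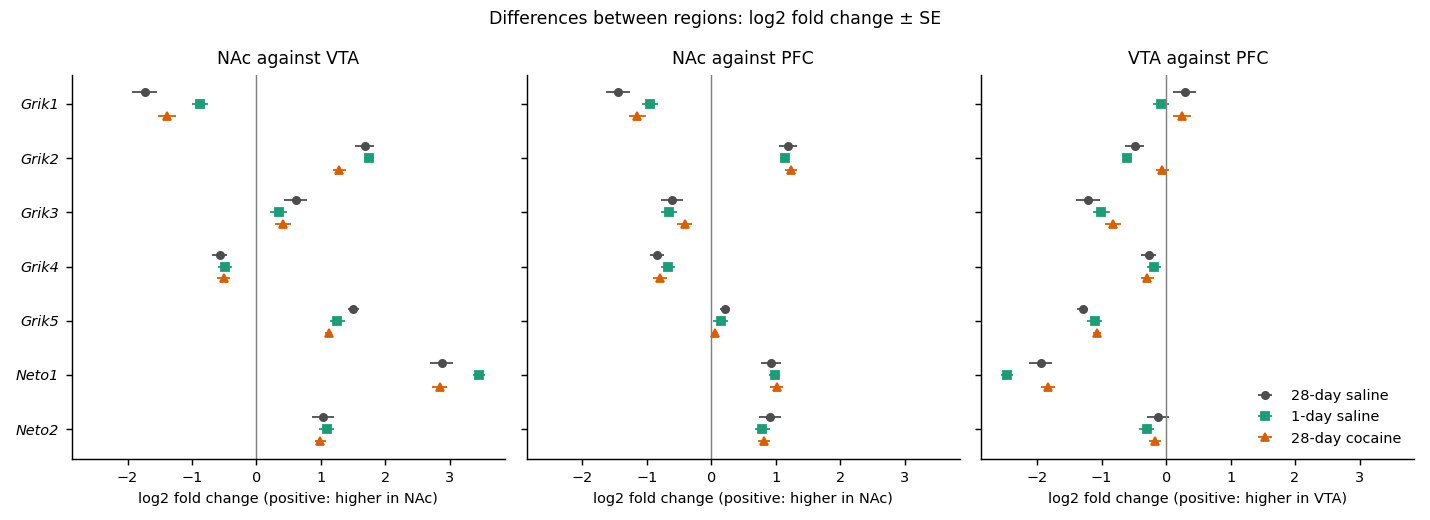
Log2 fold changes between regions (horizontal axis, with bars of 1 SE) for each gene in 3 sets of libraries: 28-day saline, 1-day saline and 28-day cocaine. Positive values are higher in the region named first. All 7 genes lay on the same side of 0 in the 3 sets for NAc against VTA and for NAc against PFC, and Grik1 changed sides for VTA against PFC.

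The contrasts between regions were also fitted in libraries that did not enter that fit. For NAc against VTA, 7 of 7 members were called in the 1-day saline libraries, beside 66% of all genes, and 7 of 7 in the 28-day cocaine libraries, beside 68.5%, 5 of them higher in the NAc each time. For NAc against PFC, 6 of 7 were called in each, beside 40.9% and 53.4% of all genes. Of these 3 were higher in the NAc, and Grik5 was not called (log2 fold change 0.14, SE 0.111, adjusted p = 0.333 at 1 day, and 0.05, SE 0.0554, adjusted p = 0.471 after cocaine). For VTA against PFC the 1-day saline libraries called 5 members and the 28-day cocaine libraries 4, beside 64.6% and 64.9% of all genes, so the share of members was near that of all genes. The members called varied. Grik2 was called in the saline sets and not after cocaine (log2 fold change -0.06, SE 0.0939, adjusted p = 0.614), Grik4 was called after cocaine (log2 fold change -0.29, SE 0.102, adjusted p = 0.0178), and Neto2 in the 1-day saline libraries (log2 fold change -0.30, SE 0.117, adjusted p = 0.0316). Without PFC saline library 4 the counts of members in the 28-day saline fit were 7, 7 and 5, beside 62.4%, 40.9% and 57% of all genes.

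**Figure D3:**
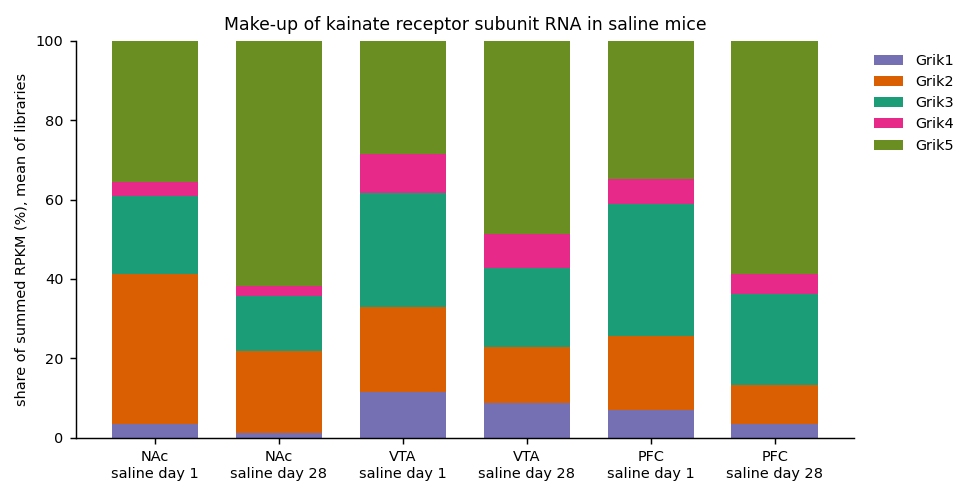
Share of each subunit in the summed RPKM of Grik1 to Grik5 (percent, mean of the saline libraries of each group). In the NAc Grik1 and Grik4 are the thinnest bands, and in each region the Grik5 band is wider at 28 days than at 1 day.

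The make-up of pore subunit RNA followed from these levels. At 28 days, Grik5 made up a median of 61.3% of the summed RPKM of Grik1 to Grik5 in NAc saline libraries (range 58.9% to 66.5%), 59.5% in the PFC (54.6% to 62.7%) and 48.2% in the VTA (44.1% to 54.7%). Grik2 made up 21.2% in the NAc (17.6% to 23.7%) but 9.04% in the PFC (8.30% to 13.7%) and 13.5% in the VTA (11.8% to 18.0%). Grik1 held 1.20% in the NAc (0.762% to 1.59%) and 9.06% in the VTA (7.58% to 10.4%), and these ranges did not overlap. The summed RPKM of Neto1 and Neto2 relative to that of Grik1 to Grik5 was 0.314 to 0.506 in the NAc, 0.178 to 0.318 in the PFC and 0.169 to 0.311 in the VTA. The highest PFC ratio was that of library 4, and the other PFC libraries reached 0.264. Without that library the PFC share of Grik2 was at most 10.1% and that of Grik5 at most 60.7%.

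Levels at 1 and 28 days were then set side by side without a test, because the time points were separate tables and time and table cannot be told apart. Grik5 was higher at 28 days in every region. Its saline medians were 31.7 and 72.8 RPKM in the NAc at 1 and 28 days, 13.8 and 28.2 RPKM in the VTA, and 27.7 and 61.0 RPKM in the PFC, and no 28-day library overlapped a 1-day library of its region and treatment. Cocaine libraries showed the same difference, with medians of 29.7 and 62.7 RPKM in the NAc, 14.1 and 30.9 RPKM in the VTA and 26.2 and 59.0 RPKM in the PFC. In log2 units (RPKM + 0.1), Grik5 was 1.26, 1.03 and 1.19 higher at 28 days in saline NAc, VTA and PFC, and 5.14%, 7.92% and 6.30% of the genes expressed at 0.5 RPKM or more on average were as far apart or farther. The medians over all those genes were between -0.06 and -0.02, so the difference was not shared by most genes. RPKM is scaled to depth, so medians near 0 do not tell whether a part of the genes differed between tables. Grik1 went the other way in the NAc, from 2.62 to 3.19 RPKM at 1 day to 0.891 to 1.93 RPKM at 28 days in saline libraries, a log2 difference of -1.03 that 8.35% of genes reached. In NAc cocaine libraries the Grik1 groups overlapped, at 1.36 to 4.59 RPKM at 1 day and 0.949 to 2.27 RPKM at 28 days, with a log2 difference of -0.53 that 31.5% of genes reached. Grik1 was lower at 28 days outside the NAc too. Its log2 difference was -0.57 in PFC saline (-0.44 without library 4), -0.34 in PFC cocaine and -0.55 in VTA cocaine libraries, all without overlap. With all libraries, 26.1%, 51.9% and 23.5% of genes were as far apart or farther. In VTA saline libraries the Grik1 groups overlapped (-0.11). Grik2 was lower at 28 days in each region and treatment, with log2 differences from -0.518 to -0.235. For Grik3 and Grik4 the log2 difference lay between -0.31 and 0.39 in each region and treatment. Genes outside the group differed too. In NAc saline libraries the scaffold gene Dlg4 had medians of 149 and 268 RPKM at 1 and 28 days. The summed NMDA receptor pore subunits had medians of 110 and 159 RPKM, while the summed AMPA receptor pore subunits were lower at 28 days, at 312 and 234 RPKM. Grik5 held 36.5% of the NAc pore subunit RNA in the median 1-day saline library, and Grik2 held the same share, 36.5%.

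**Figure D4:**
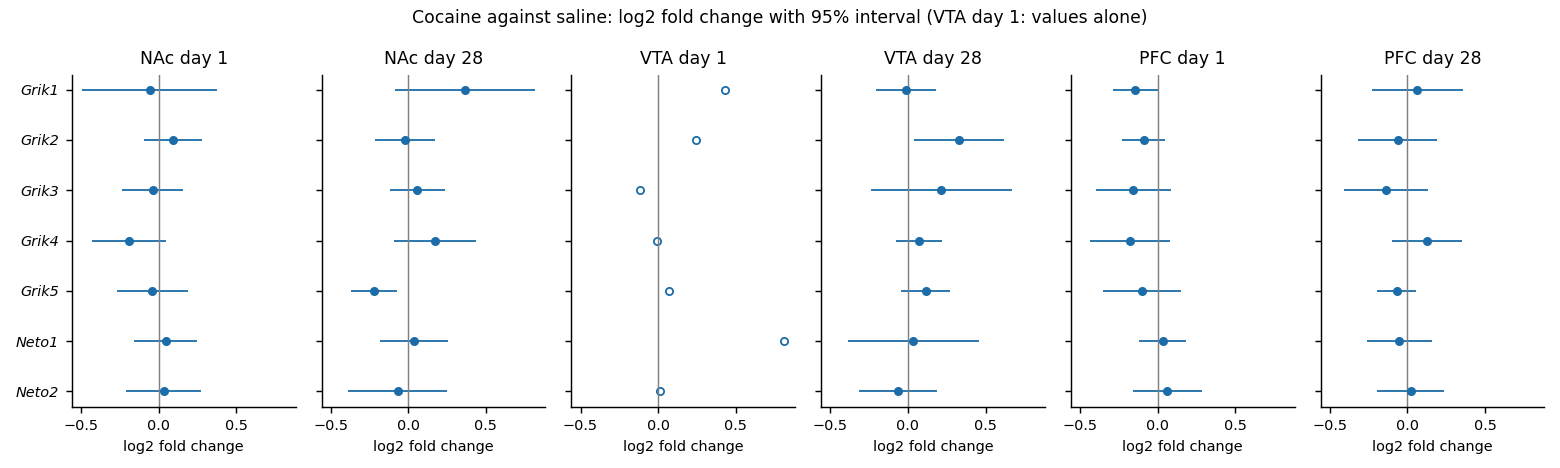
Log2 fold change of cocaine against saline (horizontal axis) for each gene in the 6 tables, with 95% intervals. VTA values at 1 day are shown without intervals because they were known when the genes were chosen. Neto1 in the VTA at 1 day, at 0.81, is the largest value, and the others lie between -0.22 and 0.43.

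Cocaine against saline was tested within each table. In the NAc, 0 of 7 members were called at 1 day and 0 of 7 at 28 days (edgeR's quasi-likelihood test), where 0.0126% of all genes were called at 1 day and 0% at 28 days. DESeq2 called 0 members in both, and an unadjusted p under 0.05 was reached by 0 members at 1 day and by 1 at 28 days. Over all genes at 28 days, 1102 had an unadjusted p under 0.05 and DESeq2 called 20. At 1 day the log2 fold changes ran from -0.19 (Grik4, SE 0.110, adjusted p = 1.0) to 0.09 (Grik2). Neto1, at 33.7 to 46.9 RPKM after cocaine (median 42.1) and 36.3 to 42.7 RPKM after saline (median 40.5), overlapped between groups, and the 95% interval of its log2 fold change was -0.16 to 0.25. Grik1 was the most scattered, at 1.36 to 4.59 RPKM after cocaine and 2.62 to 3.19 RPKM after saline, with 4 cocaine libraries below and 2 above all saline libraries.

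At 28 days in the NAc Grik5 and Grik1 stood farthest from 0. Grik5 had 58.8, 62.7 and 72.2 RPKM after cocaine (lowest, median and highest) and 65.8, 72.8 and 87.5 RPKM after saline. Of the 6 cocaine libraries, 4 lay below all saline libraries. Its log2 fold change was -0.22 (SE 0.0691, unadjusted p = 0.0058, adjusted p = 0.592, edgeR's quasi-likelihood test), and it did not pass the adjustment. Grik1 had 0.949, 1.94 and 2.27 RPKM after cocaine and 0.891, 1.38 and 1.93 RPKM after saline, with 4 of 6 cocaine libraries above all saline libraries. Its log2 fold change of 0.37 (SE 0.211, adjusted p = 0.794) carried a 95% interval from -0.08 to 0.82, and this was the least precise of the 7 at 92 to 305 reads a library. With the excitatory neuron markers as a covariate, an alternative added after the levels were seen, the log2 fold changes were -0.25 for Grik5 (adjusted p = 0.308) and 0.49 for Grik1 (adjusted p = 0.433).

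In the PFC, 0 of 7 members were called at 1 day (limma on log2 RPKM + 0.1) and 0 of 7 at 28 days (edgeR), beside 0.00693% and 0% of all genes. No member reached an unadjusted p under 0.05 at either time, edgeR on the reads recovered from the RPKM called 0 members at 1 day, and DESeq2 called 0 at 28 days. Over all genes at 28 days, 925 had an unadjusted p under 0.05 and DESeq2 called 2. All 5 pore subunits were on the lower side after cocaine at 1 day, with log2 fold changes from -0.18 (Grik4, SE 0.118) to -0.09 (Grik2, SE 0.0651), and each adjusted p was 0.918. Grik1 had 5.08 to 5.86 RPKM after saline, and 5 cocaine libraries lay below that range at 4.50 to 5.00 RPKM while library 6 lay above it at 5.91 RPKM (log2 fold change -0.14, SE 0.0681, adjusted p = 0.918). The levels of the other members overlapped as well. Grik3 had 20.9 to 27.7 RPKM after cocaine (median 22.4) and 19.9 to 31.8 RPKM after saline (median 27.0). At 28 days the log2 fold changes ran from -0.14 (Grik3) to 0.12 (Grik4), and from -0.20 (Grik3, adjusted p = 0.967) to 0.12 (Neto2, adjusted p = 0.967) without saline library 4. Library 4 gave the highest Neto1, Grik2 and Neto2 levels of its group, at 22.5, 14.6 and 11.5 RPKM, and the lowest Grik1 level, at 2.30 RPKM. Neto1 was 0.05 lower after cocaine on the log2 scale with that library and 0.05 higher without it.

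In the VTA at 1 day Neto1 was higher in every cocaine library than in any saline library. The saline libraries held 3.21 to 4.66 RPKM (median 3.74, from 268 to 441 reads) and the cocaine libraries 5.68 to 8.35 RPKM (median 6.72, from 505 to 699 reads), a log2 fold change of 0.81, which is 1.76-fold. Neto2 was level, at 8.92 to 11.9 RPKM after saline and 8.60 to 11.9 RPKM after cocaine. The ratio of Neto1 to Neto2 was accordingly 0.310 to 0.520 in saline and 0.602 to 0.776 in cocaine libraries. Of the members 1, Neto1, had an adjusted p under 0.05 here, as did 0.186% of all genes. The choice of the genes used this contrast, so nothing is read from that count. Over all genes, 2323 of the 15042 tested had an unadjusted p under 0.05 in this contrast (limma). How many of all genes were separated as fully as Neto1 was not counted. Even after cocaine, VTA Neto1 stayed below all PFC and NAc libraries.

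Grik1 and Grik2 had the next largest values in the 1-day VTA. Grik1 was at 3.69 to 7.44 RPKM after saline (median 5.49) and 6.52 to 8.02 RPKM after cocaine (median 7.46), a log2 fold change of 0.43. The saline libraries spread widely and overlapped the cocaine libraries. Grik2 was at 9.11 to 11.2 RPKM after saline (median 10.6), and 5 cocaine libraries lay above that range at 12.6 to 14.8 RPKM, while cocaine library 6 lay below it at 6.96 RPKM. The log2 fold change was 0.24 with all libraries and 0.40 without library 6. That library also had the highest summed level of 3 choroid plexus markers of the VTA, 147 RPKM, against a group median of 5.69 RPKM. The remaining members had log2 fold changes between -0.11 (Grik3) and 0.07 (Grik5).

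**Figure D5:**
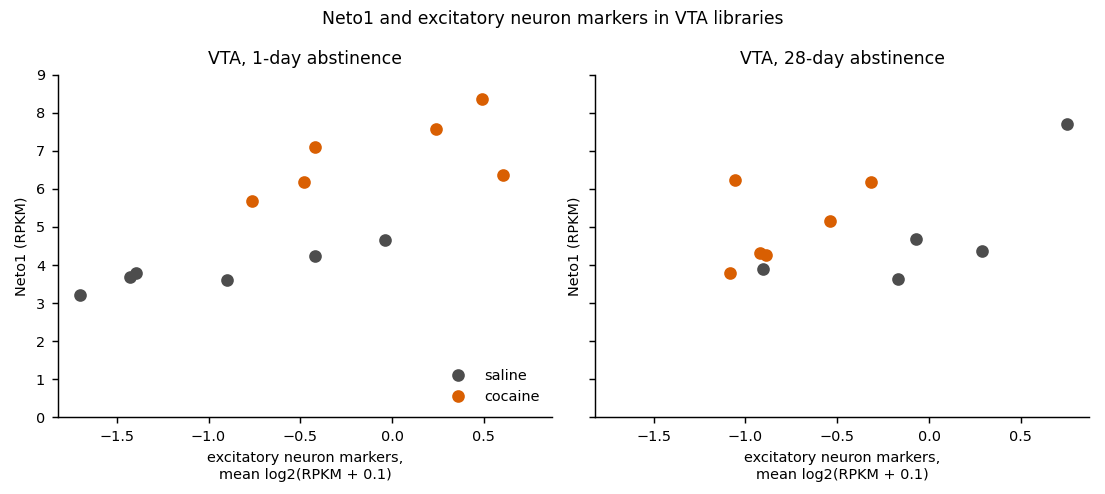
Neto1 level (RPKM, vertical axis) against the mean log2(RPKM + 0.1) of 6 excitatory neuron markers (horizontal axis) in VTA libraries, grey for saline and orange for cocaine. At 1 day all cocaine libraries are above all saline libraries on the vertical axis, while the groups overlap on the horizontal axis, and at 28 days saline library 4 has the highest value on both axes, 7.71 RPKM and 0.75.

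Markers of some other cells differed in level between the treatment groups of the 1-day VTA. The ranges overlapped, these differences were not tested, and only some of the marker lists are given. The mean log2 level of the 6 excitatory neuron markers was -1.70 to -0.04 in saline and -0.76 to 0.61 in cocaine libraries. With that mean as a covariate the log2 fold change of Neto1 was 0.59 in place of 0.81, that of Grik1 0.14 in place of 0.43, and that of Grik2 0.42 in place of 0.24. Summed microglia markers (6 genes) were 100 to 151 RPKM after saline and 65.2 to 109 RPKM after cocaine, and summed dopamine neuron markers (6 genes) were 660 to 1683 RPKM after saline and 421 to 1023 RPKM after cocaine. None of these lists had a member at 0 reads throughout a VTA group. The part of microglia and dopamine neuron markers in the Neto1 difference was not tested.

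At 28 days in the VTA the Neto1 difference was not seen. The saline libraries had 3.90, 3.63, 4.68, 7.71 and 4.38 RPKM and the cocaine libraries 3.79 to 6.24 RPKM (median 4.74), and the groups overlapped fully. The log2 fold change was 0.03 (SE 0.193, adjusted p = 0.950, edgeR), with a 95% interval from -0.39 to 0.45. Saline library 4 supplied the 7.71 RPKM and had the highest excitatory marker mean of the group, and without it the log2 fold change was 0.26 (SE 0.149, adjusted p = 0.539). With the excitatory markers as a covariate it was 0.44 (SE 0.213, adjusted p = 0.263). The 1-day and 28-day effects in the VTA were not tested against each other.

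Among all members in the 28-day VTA, 0 of 7 were called by edgeR and 0 by DESeq2, beside 0% of all genes, of which 1942 had an unadjusted p under 0.05 and 83 were called by DESeq2. Grik2 was the 1 member with an unadjusted p under 0.05. It had 9.11 to 13.3 RPKM after cocaine (median 9.93) and 8.09, 7.26, 9.44, 10.5 and 6.07 RPKM after saline, with 2 cocaine libraries above all saline libraries. Its log2 fold change of 0.33 (SE 0.133, unadjusted p = 0.029, adjusted p = 0.412) did not pass the adjustment. Grik3 had a log2 fold change of 0.21 with a 95% interval from -0.24 to 0.67, and with the excitatory marker covariate it was -0.05. Its VTA levels were the most scattered of the family, at 7.65 to 17.7 RPKM after saline and 11.3 to 18.5 RPKM after cocaine.

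Whether the effect of cocaine differed between 1 and 28 days was tested as the product of treatment and time in the NAc and the PFC. Of the 7 members 0 were called in either region (edgeR's quasi-likelihood test), beside 0.0181% of all genes in the NAc and 0.00604% in the PFC, and DESeq2 called 0 members in both. Grik4 came nearest in the NAc, where its effect at 1 day was 0.38 lower on the log2 scale than at 28 days (log2 difference -0.38, SE 0.175, unadjusted p = 0.041, adjusted p = 0.932). Its cocaine and saline medians were 2.77 and 3.21 RPKM at 1 day and 3.53 and 3.02 RPKM at 28 days. It was the 1 member with an unadjusted p under 0.05 in the NAc, and there were 0 in the PFC, where the log2 difference of Grik4 was -0.30 (SE 0.164, adjusted p = 0.995), and -0.23 (SE 0.154, adjusted p = 0.997) without saline library 4. For Grik1 in the NAc it was -0.43 with a 95% interval from -1.07 to 0.21.

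Proteins that bind, carry or modify kainate receptors were followed as a list of 18 genes. With cocaine, 0 of the tested members of this list were called in any of the 6 tables, with 17 or 18 tested and at most 4 at an unadjusted p under 0.05. DESeq2, run on the 4 count tables, called 1 partner, Cdh2 in the NAc at 28 days (log2 fold change 0.32, SE 0.0730, adjusted p = 0.0244), which edgeR did not call (log2 fold change 0.32, SE 0.0669, adjusted p = 0.592). Cdh2 encodes N-cadherin and is named here after its values were seen. edgeR on recovered reads called 0 in the other 2 tables. The list's median log2 fold changes lay between -0.01 and 0.04, beside -0.03 to 0.03 over all genes. Between regions, 7 of 18 partners were called for NAc against VTA, 5 higher and 2 lower (median 0.08, all genes -0.03), beside 62.5% of all genes. For NAc against PFC 3 were higher and 4 lower (median 0.01, all genes 0.02), beside 40.7% of all genes. For VTA against PFC 1 was higher and 9 lower (median -0.24, all genes 0.02), beside 57.8% of all genes. Without PFC saline library 4 the calls among the partners differed for 1 gene, Ctnnb1, which was then called for NAc against VTA and is named here after its values were seen.

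The partners with the steepest regional differences were the C1q-like proteins, which gather kainate receptors at synapses, and Kif17, a dendritic motor. C1ql3 had a median of 44.9 RPKM in the PFC, 2.11 RPKM in the NAc and 5.18 RPKM in the VTA of 28-day saline mice (log2 fold change of NAc against PFC -3.95, SE 0.373, adjusted p = 3.4e-07). C1ql2 was at 2.03 to 23.7 RPKM in the VTA and at most 1.29 RPKM elsewhere (log2 fold change of NAc against VTA -4.21, SE 0.599, adjusted p = 8.3e-06). It is also a marker of dentate granule cells, and the other 2 markers of that list are Prox1 and Dsp. The VTA median was 2.91 RPKM, far below the highest library. Kif17 was higher in the NAc than in the VTA by a log2 fold change of 2.52 (SE 0.142, adjusted p = 8.4e-11) and than in the PFC by 0.90 (SE 0.125, adjusted p = 1.7e-05).

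Dlg4, the scaffold PSD-95, was lowest in the VTA like Grik5, with medians of 268 RPKM in the NAc, 239 RPKM in the PFC and 83.9 RPKM in the VTA (log2 fold change of NAc against VTA 1.72, SE 0.0963, adjusted p = 8.1e-11). Its NAc and PFC levels overlapped and their difference did not pass the test (log2 fold change 0.13, SE 0.0879, adjusted p = 0.273). Klhl17, the actinfilin that links GluK2 to its breakdown, was nearly level at 12.6, 10.8 and 13.0 RPKM, and NAc against PFC gave a log2 fold change of 0.17 (SE 0.0627, adjusted p = 0.0339). Dlg1 and Grip1, both scaffolds, were also higher in the NAc than in the VTA, by 0.80 and 0.63 on the log2 scale. Snap25, Cdh2 and Cask were higher in the PFC than in both other regions, with log2 fold changes of NAc against PFC of -0.95, -0.50 and -0.27 and of VTA against PFC of -0.76, -0.43 and -0.34. The 9 partners called lower in the VTA than in the PFC also included Dlg1, Dlg4, Grip1, Kif17 and C1ql3.

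Kainate receptor RNA was compared with that of the other ionotropic glutamate receptors per length. In 28-day saline mice the summed RPKM of Grik1 to Grik5 was 112 to 132 in the NAc, 48.1 to 63.0 in the VTA and 100 to 126 in the PFC. The 4 AMPA receptor pore subunits summed to 228 to 258, 104 to 127 and 209 to 249 RPKM in these regions, and the 7 NMDA receptor subunits to 146 to 172, 90.9 to 110 and 156 to 176 RPKM. The kainate sum was therefore 0.433 to 0.572 of the AMPA sum and 0.510 to 0.837 of the NMDA sum in these 28-day libraries of the 3 regions. The ratio to the AMPA sum was lower at 1 day, with saline medians of 0.281, 0.302 and 0.256 in the NAc, VTA and PFC. At 28 days these medians were 0.505, 0.504 and 0.476. For the NMDA sum the medians were 0.813, 0.641 and 0.737 at 1 day and 0.751, 0.575 and 0.615 at 28 days. Time and table cannot be told apart here. Against the VTA, the NAc was higher for 3 of 4 AMPA subunits and lower for 1 (median 1.30), and higher for 4 of 7 NMDA subunits and lower for 3 (median 0.87), beside a median of 1.03 for the members and 62.5% of all genes called. With cocaine, 0 AMPA and 0 NMDA subunits were called in any of the 6 tables, with at most 2 of a family at an unadjusted p under 0.05 in a table, and DESeq2 or edgeR on recovered reads also called 0.

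The genes whose level followed each member most closely were found over the 35 libraries at 28 days, as the smallest root mean square difference between centred log2 CPM (depth-scaled counts), among 17679 genes. They share depth and region with the member, so the distance is a description. Grik1 was nearest to Ephb2, Sema5a and Dscam (0.223 to 0.239), Grik2 to Alcam, St8sia3 and Dpy19l3 (0.172 to 0.195), and Grik3 to Usp46, Ppfia2 and Mpp2 (0.216 to 0.235). Grik4 was nearest to Wdr1, Slc35f5 and 4931428F04Rik (0.153 to 0.160) and Grik5 to Pip5k1a, Gm996 and Prkcz (0.120 to 0.123). Neto1 was nearest to Prosapip1, D3Bwg0562e and Phactr1 (0.227 to 0.243) and Neto2 to Kdm3a, AK129341 and Cnst (0.162 to 0.167). Within the family, Grik2 and Neto2 were each other's nearest member at 0.314, whereas the nearest member to Neto1 was Grik5, at 0.692.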

How the data were processed

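RNA-seq reads were aligned by the authors with STAR 2.4.1d to mm9 with Ensembl annotation. The counting tool and strand setting were not given in the sources used here. The deposited values were raw counts per gene for the NAc at both times and for the VTA and PFC at 28 days, and RPKM for the VTA and PFC at 1 day. Whole reads and gene lengths were recovered from the RPKM steps for 100% of genes with reads (tolerance 0.01 reads), and these lengths gave RPKM for the count tables. A further 30 per-library columns, of a food group, matched no sample label and were not used here, nor were the authors' columns of fold changes and p-values. The 28-day columns were matched to groups, not to single samples, and their library numbers are column numbers.

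Counts were tested with edgeR 4.0.16 (quasi-likelihood, TMM scaling, filterByExpr with a minimum count of 10 and total of 15), and RPKM with limma 3.58.1 on log2(RPKM + 0.1) for genes averaging 0.5 RPKM or more, so folds of low genes are understated there. Interactions in the PFC used recovered reads at 1 day. P-values were adjusted by Benjamini-Hochberg over all genes tested. DESeq2 1.42.0, other filters, scalings and pseudocounts, marker covariates and the omission of each library were alternatives. All 7 members passed the filters in every fit. Scripts were tested on simulated data. The members and lists were chosen with earlier results of these data known. Named genes were the 7 members, the 3 nearest genes of each, and from the partner list those called in a comparison, and C1ql2, C1ql3, Klhl17 and Dlg4. Values of 1 called partner are not reported here.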

Additional observations from a re-analysis of the deposited data

Results flagged for a closer look

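In 84 sets of member and group, the highest or lowest library was compared with the nearest of the others (Dixon's test, 95% level), and in 7 of these sets a library lay apart. Chance gives about 1 in 20 sets. In the 1-day VTA cocaine group Grik2 was 6.96 RPKM in library 6 and 12.6 to 14.8 RPKM in the others. In the 28-day VTA saline group Neto1 was 7.71 RPKM in library 4 and 3.63 to 4.68 RPKM in the others. In the PFC, Grik1 was 5.91 RPKM in 1-day cocaine library 6 (others 4.50 to 5.00) and Grik5 was 19.4 RPKM in 1-day cocaine library 5 (others 26.1 to 28.3). The 28-day PFC cocaine library 5 was high for both Grik3, at 28.7 RPKM (others 19.3 to 22.7), and Grik4, at 7.55 RPKM (others 5.01 to 5.87). In the NAc, Grik5 was 87.5 RPKM in 28-day saline library 5 (others 65.8 to 73.2).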

How the results depend on the processing

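The count of members called after cocaine was 0 under every alternative run in the NAc and PFC, at 28 days in the VTA and for both interactions. In the 1-day VTA, where the count only describes the contrast that chose the genes and nothing is read from it, the count of 1 became 2 at an adjusted p under 0.25, 0 without a filter, 0 with the excitatory marker covariate, and 0 to 2 when each library was left out. Calls over all genes fell too, from 28 of 15042 to 2 of 23806 without a filter and 0 of 15042 with the covariate. The counts for NAc against VTA, NAc against PFC and VTA against PFC were 7, 6 to 7 and 4 to 5 when each library was left out. Among log2 fold changes of at least 0.15 in size, the only ones followed gene by gene, 2 reversed: Grik3 in the 28-day VTA with the excitatory marker covariate (-0.045), and Grik1 for VTA against PFC in the 1-day saline libraries (-0.083). The cause was not tested. Smaller values also changed sign, such as 28-day PFC Neto1 without saline library 4 (0.05). Same-numbered 1-day cocaine and saline libraries of a region mostly did not deviate together. Correlations ran from -0.491 to 0.593 over 18 pairs, and 7 of them were over 0.1. The 3 pairs that matched their own number best had correlations of 0.42 to 0.593. With the replicate block the counts of members were 0, 1 and 0 in the NAc, VTA and PFC, beside 2 of 15878, 13 of 15042 and 1 of 14427 genes. Depth limits Grik1 most, at 83 to 305 reads in NAc libraries. The excitatory covariate in the NAc and the striatal covariate in the 28-day PFC were chosen after seeing the data.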
